A study of Vitis vinifera with 156 samples.

Results

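The most abundant transcripts of dormant grapevine buds were chosen by their measured level, as the 50 rows of the deposited count table, of 42413 in all, with the highest mean CPM. CPM is a row's count over the total of its library times 1000000, and the mean was taken over the libraries of at least 1000000 counts, which left out 17. The buds came from Cabernet Sauvignon, a wine grape cultivar of Vitis vinifera, were in endodormancy (the state in which a bud stays closed even in favourable conditions), and were kept in growth chambers. The groups were buds before treatment (day 0) and buds at constant temperature. Those at 2, 4, 7 and 11 °C were taken on days 7, 13, 20 and 26 and again on days 34, 41, 55 and 69, and those at 22 °C up to day 55 but not on day 69. In a further regime, cuttings held at 2, 7 or 11 °C until day 26 went to a chamber that averaged 7 °C and varied by 5 °C each way every day, from 2 to 12 °C, with sampling on days 34, 41, 55 and 69. These groups are called fluctuating after 2, 7 or 11 °C, and the temperature series are called arms. All groups share one cultivar, one tissue and the dormant start, and none carries a genetic change. Each of the 52 groups had 3 libraries, and the labels do not say whether these came from separate plants, so every p-value measures only the spread between libraries, which may be technical.

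Buds of woody plants gain freezing tolerance in autumn and winter while they are dormant, a process called cold acclimation that low temperature promotes. Acclimating plant tissue is known to make dehydrins and other protective proteins and to change its sugar and lipid metabolism, and several classes of stress and storage transcripts are abundant in resting buds in general. Which of these the 50 transcripts are cannot be said here, because the table as used names its libraries but pairs no line with a gene identifier. Each transcript is therefore called by the number of its line, counted from 1 after the header ("gene 40972"), and its function, position and sequence are not given. The libraries read only the 3′ end of messenger RNA, so long transcripts gain no counts from their length and levels can be set side by side between transcripts on the CPM scale.

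Library totals ran from 27485 to 7138863 counts with a median of 2228888, and 17 libraries lay under 1000000. Library names carry the word First (86 libraries) or Second (70), which is treated as a batch: the buds before treatment and constant 2, 7 and 11 °C were in the First set, 4 °C and all fluctuating arms in the Second, and 22 °C moved from the First to the Second at day 26. Fluctuating and constant arms, and 4 °C and its constant neighbours, therefore cannot be told apart from the library set. A pair of libraries of 22 °C at day 41 stood apart from the rest: the 50 transcripts took 13.8% of the counts in replicate 3 and 22.8% in replicate 1, against 49.7% in replicate 2. Tests that use them are given with and without them. In bulk samples such as these, fewer cells of a type and less RNA per cell cannot be told apart.

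Together the 50 transcripts took 48.3% ± 7.21 (SD over the libraries of at least 1000000 counts) of all counts, with a range from 13.8 to 65.1%. Since the rule chose them by their level, this share is a description. The first 3 transcripts made up 26.5% on average and the first 10 made up 37.1%. Gene 40972 alone, at 127496 ± 50060 CPM (SD over the same libraries), held 12.7%, and it was the highest row of most libraries. Gene 12654, at 90211 ± 34316 CPM, led 26 libraries. Gene 24813, at 46989 ± 27455 CPM, led 6, and gene 6162, at 24495 ± 14898 CPM, led 2. So a handful of transcripts headed nearly every library, whatever its temperature.

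Further down, gene 12653 averaged 24063 CPM, gene 9449 averaged 20071, gene 38285 averaged 12804, and genes 10038, 10812 and 16689 averaged 8553, 8483 and 8240. Only 7 transcripts averaged at least 10000 CPM and 38 averaged at least 2000. At the edge of the rule the values were close: genes 34890, 9525 and 27566, ranked 48 to 50, averaged 1506, 1502 and 1457 CPM, and genes 10495, 4424 and 23572, ranked 51 to 53, averaged 1448, 1384 and 1371. Every one of the 50 had a count above 0 in every library. All 50 passed the filter on low counts in every comparison below, which was applied to the whole table.

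**Figure D1:**
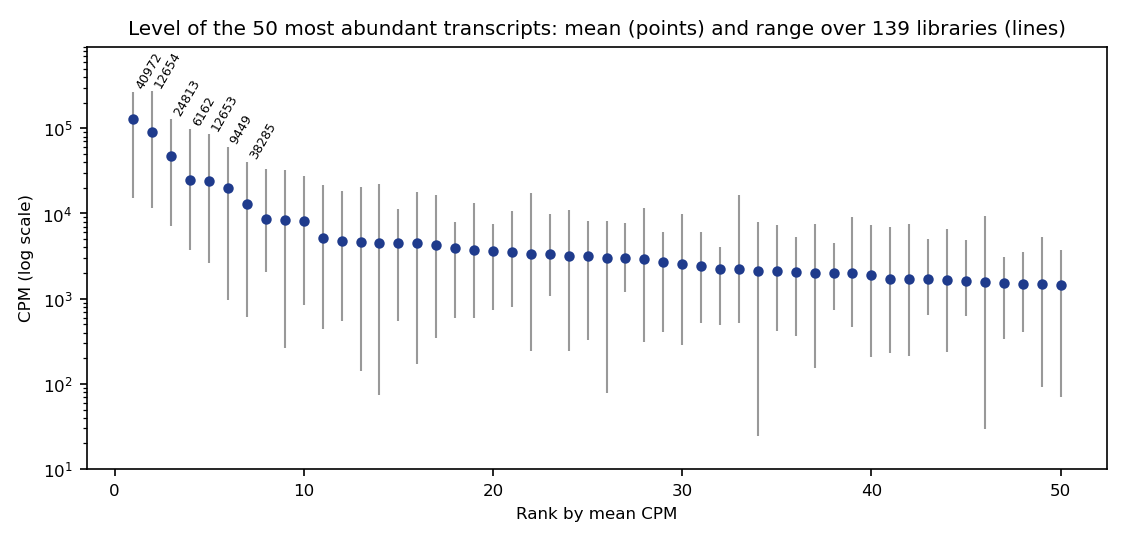
Mean level (points) and range (lines) of the 50 transcripts over the libraries of at least 1000000 counts, in CPM on a log scale, against their rank, with the first 7 named by line. The curve drops steeply over the first 7 transcripts, from 127496 to 12804 CPM, and then flattens to 1457 CPM.

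Abundance did not mean steadiness. The coefficient of variation over libraries had a lowest value of 25.6% and a median of 59.3%, while within groups of 3 its median per transcript ran from 13.9 to 66.8%. In 42 of the 50 the highest library was at least 10-fold the lowest, and in 7 at least 100-fold. These ratios include the 22 °C libraries of day 41 that stood apart. Gene 40972 had its lowest value, 15114 CPM, in replicate 3 of that group. The 50 highest rows of a single arm held between 37 (22 °C) and 47 (fluctuating after 2 °C) of the members, and 26 members were among the 50 highest rows of all 9 arms. At the level of single libraries, 6 members were in the top 50 of every library of at least 1000000 counts. Some members lie on neighbouring lines of the table (genes 12653 and 12654) or on nearby lines with others between (genes 17440 and 17442, genes 40972 and 40978). Whether any of these are copies that share reads is not known.

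By arm, the mean share was lowest before treatment, at 38.8% ± 6.18 (SD, n = 2 libraries of at least 1000000 counts), and at 22 °C, at 41.3% ± 11.2 (n = 18). It was 48.3% ± 4.42 at 2 °C (n = 20), 53.3% ± 4.38 at 4 °C (n = 22), 46.5% ± 5.81 at 7 °C (n = 23) and 46.2% ± 5.67 at 11 °C (n = 21). Under fluctuation it was 53.4% ± 3.13 for the 2 °C start, 52.2% ± 4.89 for the 7 °C start and 49.99% ± 4.96 for the 11 °C start (n = 11 each). The 22 °C mean includes the day 41 libraries at 13.8 and 22.8%, and its median was 45.4%. On days 7, 13 and 20 the means were 49.8, 44.3 and 50.3% at 22 °C. They were 50.1, 50.7 and 47.4% at 7 °C and 48.5, 51.2 and 42.9% at 11 °C, so the arms were not ordered alike. The third library before treatment, at 922797 counts, had 45.1%. The ranges of single libraries overlapped between all cold and fluctuating arms, and the arms with the highest shares were all in the Second library set. The set as a whole gave 50.3% ± 8.15 (n = 63) against 46.6% ± 5.89 (n = 76) in the First, so temperature or regime and set cannot be told apart in that difference. Libraries of the same group differed by a median of 7.04 percentage points between lowest and highest, and 40.1% of the variance of the share lay within groups.

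Over days, the 22 °C arm moved most. Its mean share was 49.8%, 44.3% and 50.3% on days 7, 13 and 20 and then 37.2%, 37.7%, 28.7% and 37% on days 26, 34, 41 and 55, the last from 1 library. The library set also changed at day 26. The 22 °C libraries of the First set averaged 46.3% ± 8.32 (n = 10, median 48.5%) and those of the Second 35.1% ± 11.6 (n = 8, median 37.3%). At day 26 itself the mean covers a First library at 29.8% and a Second library at 44.6%. The day 41 and Second set means include the libraries that stood apart, at 13.8 and 22.8%. Day and set cannot be told apart here. At 2 °C the share was 41.4% at day 13 (n = 2) and 51.1% at day 69, and at 11 °C it was 51.2% at day 13 and 40.6% at day 69. At 7 °C it stayed between 43.1 and 50.7% on every day, and at 4 °C its highest day mean was 57.5%. No test was made of these steps, and groups of 3 libraries spread by up to 35.9 percentage points.

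**Figure D2:**
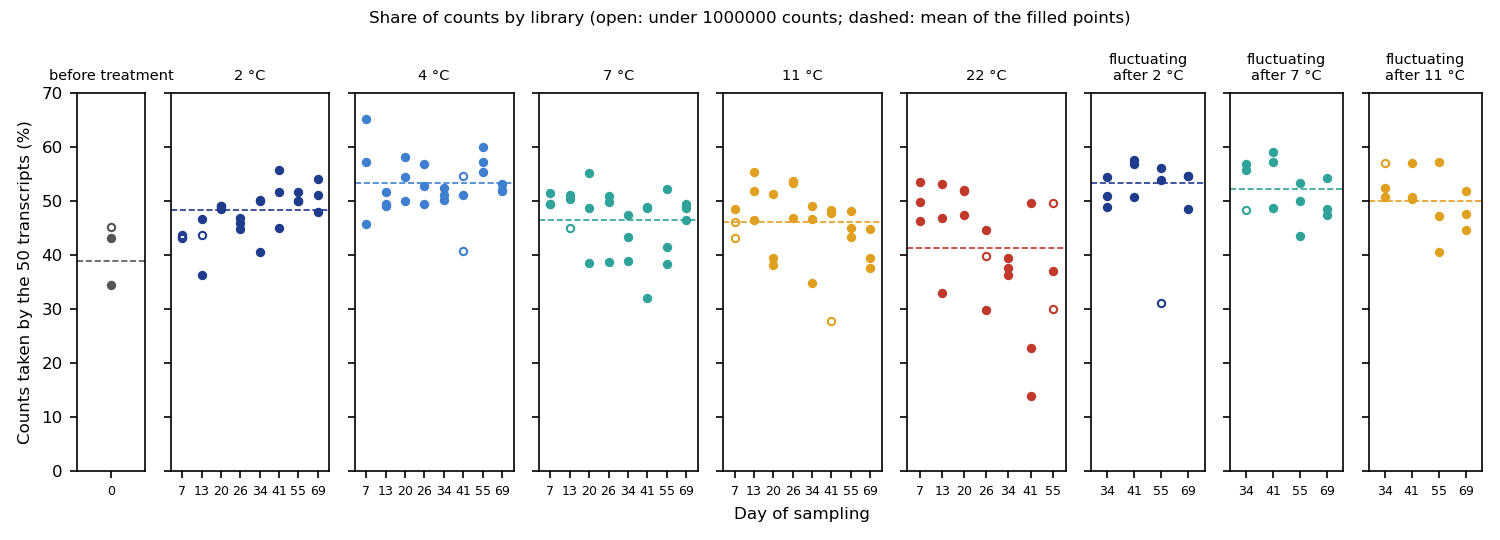
Share of counts (%) taken by the 50 transcripts in each library, by arm and day; open points are libraries under 1000000 counts and dashed lines are arm means over the filled points. Most libraries lie between 40 and 60%, and the 22 °C arm falls lower, down to 13.8% at day 41.

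The single transcripts differed between temperatures much more than their sum. Over the constant arms, the ratio of the highest to the lowest arm mean ran from 1.44-fold (gene 4635) to 32-fold (gene 5181), with a median of 2.36-fold. The highest arm was 2 °C for 13 members, 4 °C for 13, 7 °C for 4, 11 °C for 7 and 22 °C for 13. The lowest was 22 °C for 23 members and 2 °C for 15. Most libraries behind the rule came from colder arms, so a low 22 °C mean is partly set by the choice of members.

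Among the leaders, gene 40972 averaged 74502 ± 22445 CPM at 2 °C (n = 20) and from 124866 to 144380 CPM in the other constant arms, so at 2 °C it came second to gene 12654, at 108265 ± 27027 CPM. Gene 24813 ran from 79203 ± 28687 CPM at 4 °C and 66272 ± 21884 at 2 °C down to 28713 ± 16119 at 11 °C and 17927 ± 7231 at 22 °C. Gene 6162 ran the other way, from 12914 ± 5316 CPM at 2 °C to 47145 ± 23095 at 22 °C, where it was the third highest row. For gene 38285 the means were 24070 ± 10334 CPM at 2 °C and 4320 ± 3421 at 22 °C. Gene 12653 stood lowest before treatment, at 3387 and 4324 CPM in the 2 deep libraries, and its mean was higher in each later arm.

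**Figure D3:**
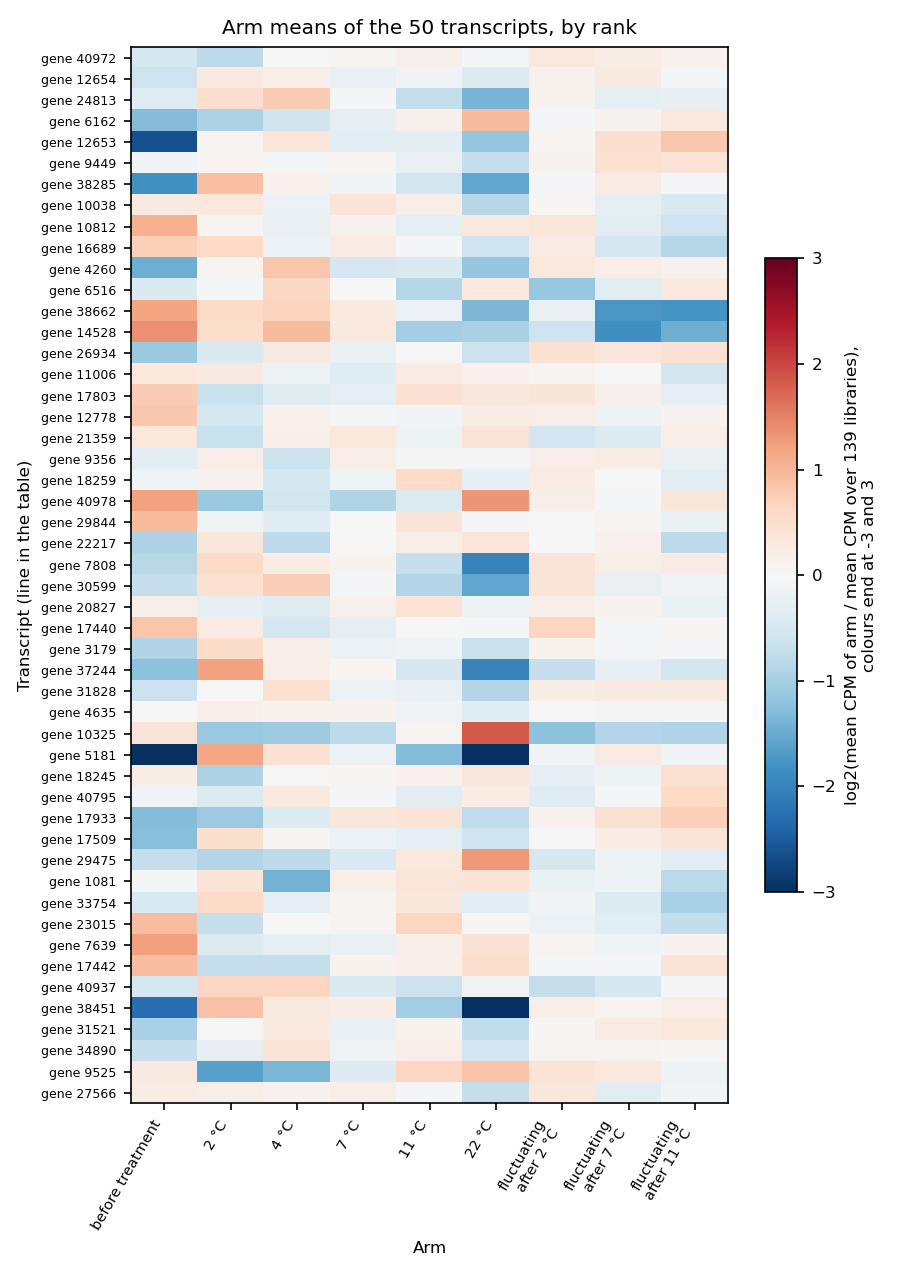
Mean CPM of each arm over the overall mean, as log2, for the 50 transcripts in rank order; red is above and blue below the overall mean, and the arms cover different days. Genes 5181, 38451 and 37244 are darkest blue at 22 °C, while genes 10325, 40978 and 29475 are red there.

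Temperature was first compared within the First library set, at days 7 to 20, where 2, 7, 11 and 22 °C each had 9 libraries (edgeR's quasi-likelihood test over the whole table, Benjamini-Hochberg adjusted, called at an adjusted p under 0.05). At 2 °C against 22 °C, 33 of the 50 (66%) were called, where 51.9% of all genes tested were called. Of these, 15 were higher (30% of the 50, beside 25.2% of all genes) and 18 lower (36%, beside 26.6%). Percents of members are of the 50 throughout. Whether their high counts made the members easier to call was not tested. At 7 °C against 22 °C the count was 24 (48%), beside 37.7% of all genes, with 13 higher (26%, beside 18.1%) and 11 lower (22%, beside 19.6%). At 11 °C against 22 °C it was 16 (32%), beside 15.5%, with 8 higher (16%, beside 6.37%) and 8 lower (16%, beside 9.15%). The median log2 difference of the members was close to 0 each time (-0.09, -0.15 and -0.07, against -0.02, 0.00 and -0.04 over all genes), so cold did not move them one way as a list. These comparisons share the 22 °C libraries. Libraries under 1000000 counts fell only on the cold side. They were all of day 7 and replicate 1 of day 13 at 2 °C, replicate 3 of day 13 at 7 °C, and replicates 1 and 3 of day 7 at 11 °C. With deep libraries only, the counts were 27, 24 and 16. With library totals alone as scale, the splits became 19 higher and 14 lower, 18 and 10, and 13 and 6, and the count at 11 °C was 8 without replicate 2 or without replicate 3.

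The largest difference was in gene 5181, which ran from 2084 to 5012 CPM at 2 °C (median 3296) and from 24.3 to 187 CPM at 22 °C (mean 77.6 ± 49.7, SD). The groups did not overlap, and the level at 7 °C (506 to 2349 CPM, median 1195) and at 11 °C (91.1 to 2729, median 455) lay between. It was 37.8-fold higher at 2 °C (log2 5.24 ± 0.35, SE; adjusted p = 3.47e-11 by edgeR), 14.9-fold at 7 °C (adjusted p = 5.06e-09 by edgeR) and 5.64-fold at 11 °C (adjusted p = 0.000726 by edgeR). Gene 38451 ran from 754 to 2314 CPM at 2 °C (median 1515) against a lowest value of 47.6 and a median of 70.2 at 22 °C, again without overlap. Its log2 difference was 3.96 ± 0.25 at 2 °C, 4.43 ± 0.35 at 7 °C and 2.57 ± 0.25 at 11 °C, so it was called at all 3 temperatures. Gene 37244 ran from 4366 to 9864 CPM at 2 °C against 455 to 1152 at 22 °C, 7.99-fold higher (log2 3.00 ± 0.27; adjusted p = 2.98e-09 by edgeR).

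Other transcripts were higher at 22 °C than in the cold on these days. Gene 9525 ran from 99.5 to 1115 CPM at 2 °C (median 409) and from 2058 to 5325 at 22 °C (median 3943), a log2 difference of -3.53 ± 0.35 (adjusted p = 1.65e-08 by edgeR). Gene 29475 ran from 438 to 1844 CPM at 2 °C against 2544 to 7902 at 22 °C, -3.08 ± 0.26 on the log2 scale. Neither overlapped between the temperatures. Gene 10325 was lower than at 22 °C (3280 to 13780 CPM) at every cold temperature, with log2 differences of -2.90 ± 0.32 at 2 °C, -3.03 ± 0.33 at 7 °C and -2.56 ± 0.38 at 11 °C. Gene 40978 had a mean of 11150 ± 3095 CPM at 22 °C, against 1889 ± 1037 at 7 °C and 2277 ± 834 at 11 °C (SD, n = 9 each), with log2 differences of -2.88 ± 0.32 and -2.61 ± 0.35. Gene 14528 was called higher at 7 °C (log2 2.54 ± 0.52) and 11 °C (2.01 ± 0.51) with overlapping groups, and the call at 11 °C was lost without replicate 2 or without replicate 3.

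Of the 10 leaders, 7 were called at 2 °C against 22 °C. Gene 24813 was higher at 2, 7 and 11 °C (log2 1.46 ± 0.29 at 2 °C and 1.15 ± 0.31 at 11 °C) and so was gene 10038 (1.17 ± 0.26, 1.20 ± 0.21 and 0.88 ± 0.27), while gene 6162 was lower at all 3 (-2.24 ± 0.29, -1.72 ± 0.26 and -1.69 ± 0.32). Gene 40972 was called lower at 2 °C alone, with -1.11 ± 0.32 there, -0.27 ± 0.35 at 7 °C and -0.45 ± 0.40 at 11 °C. Genes 12654, 12653 and 9449 were called in none of the 3, with log2 differences between -0.70 and 0.49. Mean levels at these days rose stepwise from 22 through 11 and 7 to 2 °C in 9 members (18%, beside 14.7% of all genes) and fell stepwise in 6 (12%, beside 10.8%), shares near the background.

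A second warm contrast, within the Second set, set 4 °C against 22 °C at days 34 to 55 (9 libraries each). Here 22 members were called, beside 30% of all genes, with 21 higher at 4 °C (beside 13.4%) and 1 lower (beside 16.6%). The median log2 difference was 0.90 over the members and -0.04 over all genes. The share of counts is the sum of the same values, so it adds nothing to these calls. The 22 °C libraries of this set include the pair with shares of 13.8 and 22.8%. The counts without them are given below, and the median is given with them only. Gene 5181 ran from 2351 to 6283 CPM at 4 °C (median 3250) and from 40.9 to 2460 at 22 °C (mean 480 ± 822, SD), so the ranges overlapped through 1 library of 22 °C, replicate 1 of day 55, which had 93075 counts in all. The log2 difference was 3.72 ± 0.81 (adjusted p = 0.00178 by edgeR). Gene 37244 was higher by 2.76 ± 0.43 and gene 38451 by 2.73 ± 0.78 on the log2 scale, and gene 10325 was the one called lower (642 to 1283 CPM against 1332 to 16509, log2 -2.22 ± 0.43). Leaving out replicate 3 of 22 °C at day 41 gave 23 called (21 higher, 2 lower), leaving out replicates 1 and 3 gave 18 (15 higher, 3 lower), and library totals alone as scale gave 14 higher and 4 lower. Without all libraries numbered 3 the count was 3, without those numbered 1 it was 9, and the call of gene 38451 was lost without those numbered 3.

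Over all 8 days within the First set, 2 °C was compared with 11 °C (24 libraries each), and 27 members (54%) were called, beside 42.7% of all genes. At 2 °C 16 were higher (32%) and 11 lower (22%), each beside 21.3%. Gene 5181 again led: it ran from 2084 to 7871 CPM at 2 °C (median 4027) and from 91.1 to 2729 at 11 °C (median 906), with the mean higher at 2 °C on 8 of 8 days (log2 2.45 ± 0.19; adjusted p = 7.29e-15 by edgeR). Gene 14528 (2.07 ± 0.37) and gene 38662 (1.73 ± 0.33) were higher at 2 °C on 7 of 8 days. Lower at 2 °C on 8 of 8 days were gene 9525 (99.5 to 1192 CPM against 539 to 5026, log2 -2.04 ± 0.24), gene 17933 (-1.53 ± 0.26) and gene 17803 (-1.25 ± 0.30). Single libraries of both arms overlapped in each of these 6.

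Change over time was tested as a straight trend of log expression on day within each constant arm, given here as the log2 difference it implies from day 7 to day 69. At 2 °C, 15 members (30%) were called, beside 17.7% of all genes, with 14 rising (28%, beside 8.56%) and 1 falling (2%, beside 9.18%). At 4 °C it was 16 (32%), beside 18.7%, with 7 rising (14%, beside 7.96%) and 9 falling (18%, beside 10.7%). At 7 °C it was 19 (38%), beside 9.31%, with 10 rising (20%, beside 4.09%) and 9 falling (18%, beside 5.22%). At 11 °C it was 10 (20%), beside 8.94%, with 3 rising (6%, beside 4.19%) and 7 falling (14%, beside 4.75%). With library totals alone as scale the split at 2 °C became 9 rising and 10 falling, and at 11 °C 6 and 8. The count at 2 °C was 8 with only libraries of at least 1000000 counts, which takes out every library of day 7, and the counts fell to as few as 3, 7, 6 and 3 at 2, 4, 7 and 11 °C when the libraries of one replicate number were left out.

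Gene 12653 rose in all 4 cold arms. At 7 °C it stood at 2636 to 4667 CPM on day 7 and at 29675 to 41784 CPM on day 69, and at 4 °C at 6386 to 21253 CPM and then 61939 to 70972 CPM, with no overlap of the first and last day in either arm. Its implied log2 rise was 2.23 ± 0.34 at 2 °C, 2.43 ± 0.40 at 4 °C, 2.87 ± 0.34 at 7 °C and 1.87 ± 0.43 at 11 °C, each called (adjusted p = 0.00479 by edgeR at 11 °C and lower elsewhere), though the call at 11 °C was lost without replicate 2 or 3. Genes 9356 and 29475 were also called as rising in all 4 arms, by 1.19 to 1.58 and by up to 1.38 on the log2 scale. Gene 29475, lower in the cold than at 22 °C at days 7 to 20, thus rose over days in the cold. Gene 17933 rose at 2 °C (2.33 ± 0.50) and 7 °C (2.01 ± 0.46), gene 17803 at 2 °C (2.31 ± 0.46), gene 38285 at 7 °C (1.71 ± 0.52) and gene 9525 at 4 °C (2.30 ± 0.72). Of these, the 7 °C call of gene 38285 was lost without any one of the replicate numbers, and the 4 °C calls of genes 9525 and 9356 without replicate 1. The calls at 11 °C of genes 9356 and 29475, and those of gene 17933, each failed without at least 1 of the replicate numbers.

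The fallers included some of the transcripts that were high before treatment. Gene 38662, at 8645 to 15891 CPM before treatment, stood at 7241 to 13608 CPM on day 7 at 4 °C and at 1381 to 2360 on day 69. At 11 °C it went from 4761 to 12588 CPM down to 380 to 806. Its implied log2 change was -3.15 ± 0.37 at 4 °C, -4.13 ± 0.45 at 7 °C and -4.89 ± 0.62 at 11 °C, each called, and the first and last days did not overlap. The day 7 ranges at 11 °C, here and for gene 24813 below, include replicates 1 and 3, libraries of 57968 and 27485 counts. Gene 14528 fell by 3.55 ± 0.86 at 7 °C and by 4.91 ± 0.70 at 11 °C on the log2 scale, and was at 73.5 to 450 CPM on the last day at 11 °C; its 7 °C call was lost without replicate 2 or 3. Gene 27566 fell at 4 °C (-2.03 ± 0.40) and 7 °C (-2.04 ± 0.38). Gene 24813 fell at 11 °C, from 28653 to 54806 CPM down to 8551 to 17667 (log2 -2.21 ± 0.42), and at 7 °C (-1.51 ± 0.37), while at 2 °C its trend was 0.84 ± 0.37 and was not called. Gene 10812 fell at 4 °C (3.99-fold lower), 7 °C (-1.94 ± 0.36) and 2 °C (-0.92 ± 0.28), the last lost without replicate 2 or 3.

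Across the 4 cold trends, 15 members rose in at least 1 arm (beside 16.3% of the genes tested in all 4), 11 fell in at least 1 (beside 17.2%) and 0 were called in both directions (beside 0.183%). The other 24 were called in none, where 33.3% of all genes were called in at least 1. Gene 40972, the most abundant, was among the 24, with log2 trends between -0.90 and 0.01. At 22 °C, with the library set as a covariate, edgeR called 0 members (6 at an unadjusted p under 0.05), beside 0.00839% of all genes (all lower, with 0.0% higher), and DESeq2 called 1. Standard errors there were from 0.74 to 1.75 for the 10 leaders, so a change of the size seen in the cold could not be told from none. Without replicate 3, or replicates 1 and 3, of day 41 the count was 1, and without the set as a covariate it was 8, with 1523 of 10952 genes called.

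**Figure D4:**
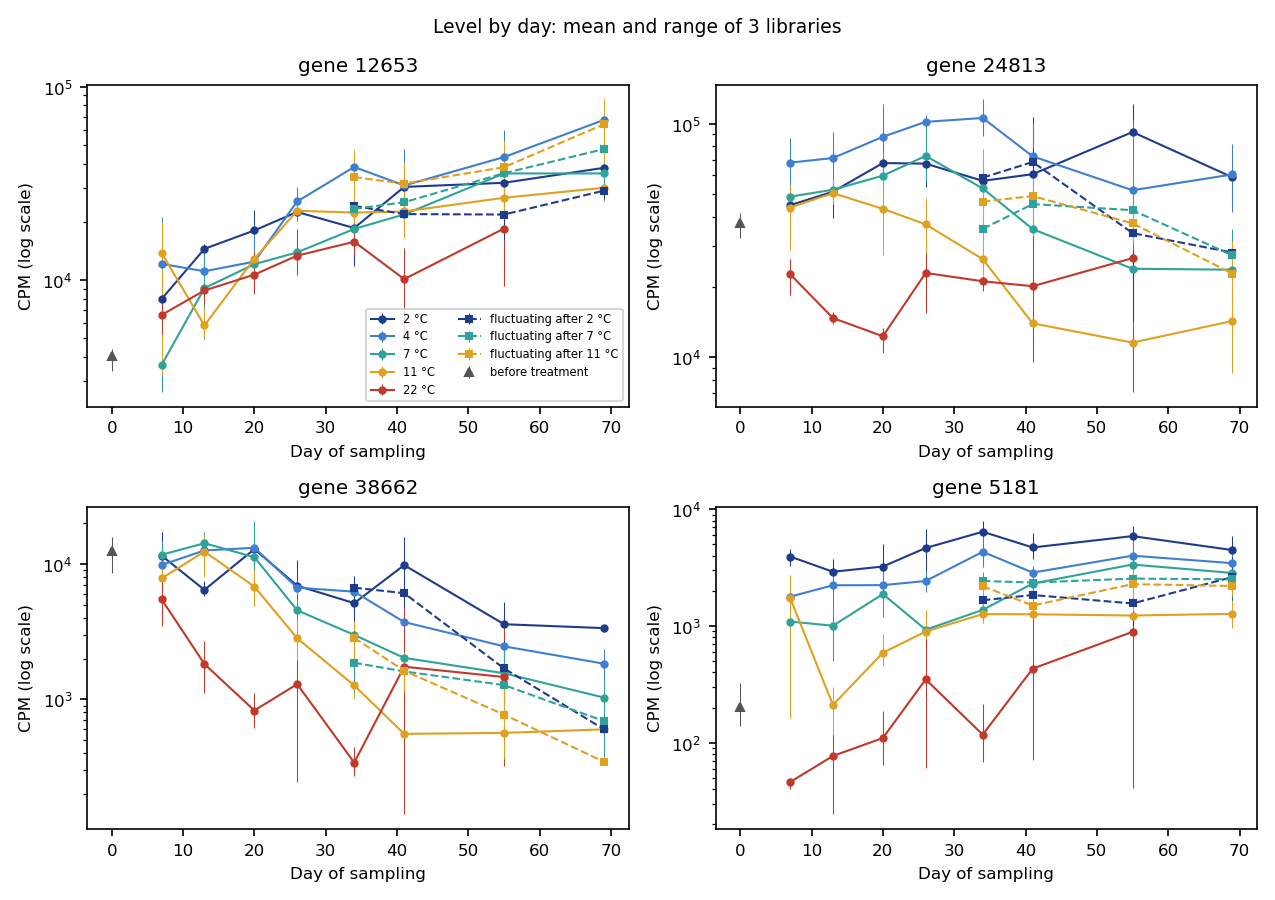
Level in CPM (log scale) of genes 12653, 24813, 38662 and 5181 by day; points are means and lines the range of 3 libraries, with dashed lines and squares for the fluctuating arms and a triangle for buds before treatment. Gene 12653 climbs and gene 38662 declines in the cold arms, gene 24813 parts at 2 and 11 °C after day 34, and gene 5181 stays lowest at 22 °C.

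The fluctuating regime was compared with the constant arm of the same start at days 34 to 69 (12 libraries each), always across library sets. After 2 °C, 17 members (34%) were called against constant 2 °C, beside 23.5% of all genes, with 11 higher (22%, beside 10.8%) and 6 lower (12%, beside 12.7%). After 11 °C, 19 (38%) were called against constant 11 °C, beside 19.5%, with 18 higher (36%, beside 11.6%) and 1 lower (2%, beside 7.83%), and library totals alone as scale gave 12 and 8. After 7 °C, where the regime has the same mean temperature as the constant arm, edgeR called 0 members and 0.0% of all genes. There 14 members and 1166 of 10511 genes had an unadjusted p under 0.05, and DESeq2 called 4 members and 182 of 7030 genes. Leaving out the libraries of one replicate number took the count after 2 °C to 9 and the count after 11 °C to 0.

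After 2 °C the most abundant transcript was among those that rose. Gene 40972 ran from 51748 to 235141 CPM under fluctuation (median 148652) and from 24203 to 107155 at constant 2 °C (median 79484), higher on 4 of 4 days (log2 1.21 ± 0.28; adjusted p = 0.00268 by edgeR). The overlap rests on replicate 1 of day 55 after 2 °C, a library of 75153 counts, and the next lowest fluctuating value was 117992 CPM. Gene 40978 ran from 2672 to 5411 CPM against 509 to 1863, with no overlap (log2 1.83 ± 0.26; adjusted p = 1.41e-05 by edgeR), and gene 9525 from 763 to 4410 against 351 to 1192 (1.73 ± 0.26). Gene 5181 ran from 998 to 3874 CPM against 3545 to 7871 and was lower on 4 of 4 days (log2 -1.41 ± 0.21; adjusted p = 2.17e-05 by edgeR). Gene 37244 was lower by -1.32 ± 0.21 and gene 14528 by -1.35 ± 0.46, the latter a call that was lost without any one of the replicate numbers.

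After 11 °C the directions were mostly upward. Gene 24813 ran from 11564 to 77849 CPM under fluctuation (median 32988) and from 8551 to 30556 at constant 11 °C (median 15778), higher on 4 of 4 days with overlap (log2 1.56 ± 0.25; adjusted p = 0.000319 by edgeR). Gene 14528 was higher by 1.65 ± 0.42 and gene 30599 by 1.43 ± 0.26, and gene 10325 was the one lower (781 to 1926 CPM against 1352 to 3583, log2 -0.84 ± 0.23). Each of these calls was lost without replicate 2.

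Between fluctuating arms, which share a library set, 2 starts were compared. For 2 °C against 11 °C starts, 2 members (4%) were called, beside 1.17% of all genes, both higher (beside 0.397%) and 0 lower (beside 0.776%). Gene 38662 ran from 537 to 8392 CPM after 2 °C (median 3642) and from 325 to 3818 after 11 °C (median 1197), higher on 4 of 4 days (log2 1.23 ± 0.27; adjusted p = 0.0234 by edgeR), and gene 10812 ran from 7584 to 21836 against 2064 to 10996 (log2 1.07 ± 0.27; adjusted p = 0.0449 by edgeR). Both calls were lost without any one of the replicate numbers, and DESeq2 called 8 members, 3 higher and 5 lower, and 1004 of 11000 genes. Against 22 °C at days 34 to 55, also within the Second set, fluctuation after 7 °C had 15 members (30%) called, beside 24.5% of all genes. Of the members, 13 were higher (26%, beside 7.13%) and 2 lower (4%, beside 17.4%). Here too the rule, with few 22 °C libraries in its mean, partly sets the direction. The median log2 difference was 0.99 over the members and -0.21 over all genes. Gene 5181 (2.97 ± 0.77), gene 38451 (2.50 ± 0.72) and gene 37244 (2.04 ± 0.44) were higher, and gene 10325 (-2.19 ± 0.43) and gene 6516 (-1.82 ± 0.55) lower. That count was 14 without replicate 3 of 22 °C at day 41, 8 without replicates 1 and 3, 10 higher and 5 lower with library totals alone as scale, and 0 without all libraries numbered 3. The call of gene 6516 was lost without replicate 3 of day 41, and that of gene 38451 without replicates 1 and 3.

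**Figure D5:**
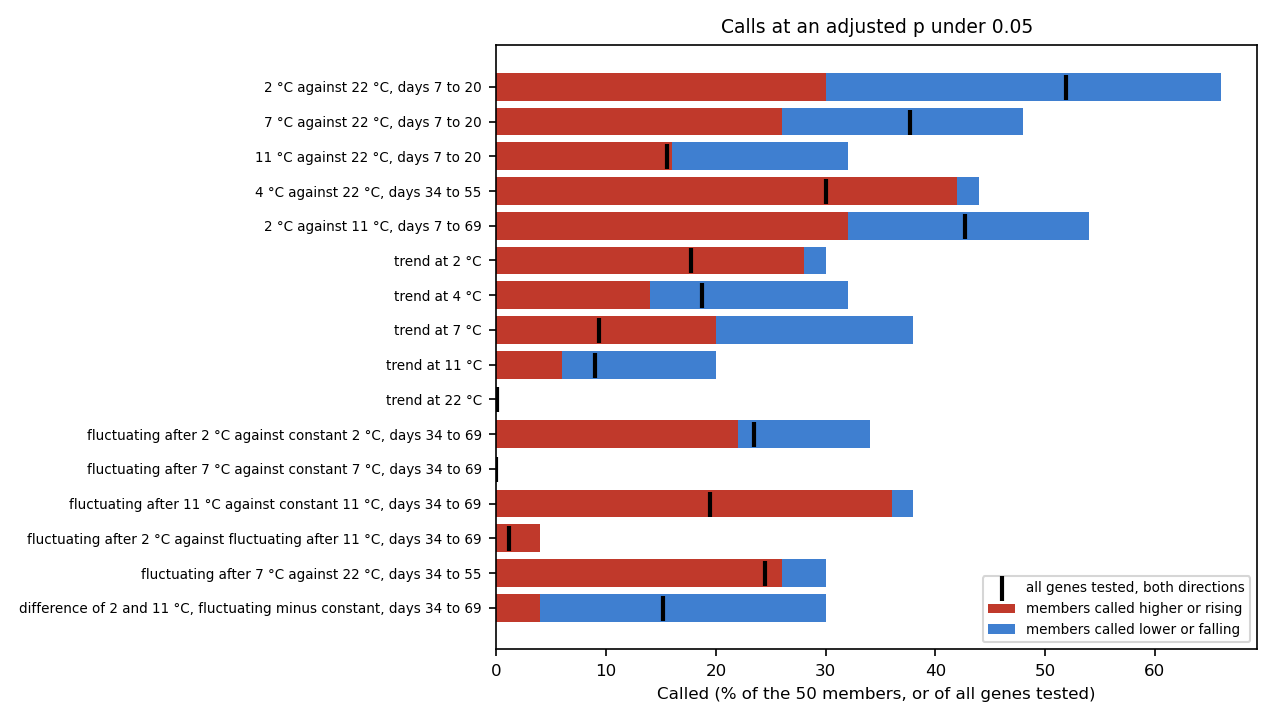
Percent of the 50 members called higher or rising (red) and lower or falling (blue) at an adjusted p under 0.05, for the 16 comparisons, with the percent of all genes tested that were called (black marks). Blue is a small part of the bar for 4 °C against 22 °C, the 2 °C trend and fluctuating after 11 °C against constant 11 °C. The same holds for fluctuating after 7 °C against 22 °C, and the bar for fluctuating after 2 °C against after 11 °C has no blue. The last bar, mostly blue, gives the change of the 2 °C to 11 °C difference from constant to fluctuating temperature.

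Whether the 2 °C to 11 °C difference itself changed with the regime was tested as an interaction at days 34 to 69, in which the set, shared by both fluctuating arms, cancels if it acts alike on each. There were 15 members (30%) called, beside 15.2% of all genes, with 13 lower at 2 °C relative to 11 °C under fluctuation than at constant temperature (26%, beside 8.0%) and 2 higher (4%, beside 7.15%). Library totals alone as scale gave 12 negative and 8 positive. Gene 5181 ran from 3545 to 7871 CPM at constant 2 °C and from 669 to 2357 at constant 11 °C, and these groups did not overlap. Under fluctuation it ran from 998 to 3874 CPM after 2 °C and from 1299 to 3086 after 11 °C, which overlapped, and the difference of differences was -2.48 ± 0.28 on the log2 scale (adjusted p = 2.03e-08 by edgeR). Gene 9525 went the other way: its mean was 612 ± 264 CPM at constant 2 °C and 2753 ± 1394 at constant 11 °C, but 2123 ± 1215 and 1493 ± 1276 under fluctuation (SD, n = 12 each), a difference of 2.16 ± 0.56 (adjusted p = 0.00558 by edgeR).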

How the data were processed

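Per the labels' protocols, the Lexogen QuantSeq 3′ kit gave the libraries, and a NextSeq500 sequenced 95 of them on a lane, each read 85 bases long. The deposited values are whole-number counts per row, not normalized, 1 column per library. FastQC, STAR and DESeq2 are named in the submitters' processing notes without versions. The genome build, the annotation and the counting settings are not given in the sources used here. Every column matched a library name in the labels.

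Each comparison was fitted on the whole table in R 4.3.3 by the quasi-likelihood F test of edgeR 4.0.16 (filterByExpr, TMM scaling, Benjamini-Hochberg adjustment), with only the groups compared and day as a factor; a trend used day as a number. The fit was tested on simulated data. SE is the log2 difference over the square root of F. CPM ranges cover all libraries of the groups tested; arm means cover libraries of at least 1000000 counts. The fits took the counts as given, and no molecular identifiers are mentioned. The members and lists were chosen with earlier results of these data known. Named were the 10 leaders, up to 3 called rises and 3 called falls per comparison, ranks 48 to 53 and every member called in the interaction. Gene 4635 (lowest ratio of arm means), genes 9356 and 29475 (called in all 4 cold trends) and members on neighbouring or nearby lines were named after their values were seen. Alternatives were DESeq2 1.42.0, other scalings, no filter, deep libraries only, other choices of members, a replicate block, each replicate number left out in turn and, added after seeing the data, library totals as scale and 22 °C without the day 41 libraries that stood apart.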

Additional observations from a re-analysis of the deposited data

Results flagged for a closer look

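The 2 °C to 11 °C difference of 15 members differed between the fluctuating and the constant regime by a test of the difference itself (edgeR's quasi-likelihood interaction, days 34 to 69, 12 libraries per arm). Values are log2 differences of differences with their SE, negative where 2 °C lost ground to 11 °C under fluctuation. The library set moves with regime, and its part in these results was not tested.

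Gene 5181, at -2.48 ± 0.28, and gene 14528, at -3.01 ± 0.63, had the largest differences. Gene 14528 averaged 5398 ± 4044 CPM at constant 2 °C and 753 ± 782 at constant 11 °C, but 2750 ± 2723 and 1568 ± 1286 in the fluctuating arms (SD). Gene 24813 (-2.07 ± 0.36) stood at 67162 ± 26504 and 16495 ± 6757 CPM at constant temperature and at 47301 ± 20586 and 38865 ± 17938 under fluctuation. Both thus lay closer together under fluctuation.

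Gene 38285 (-1.93 ± 0.49) averaged 27786 ± 8955 and 10041 ± 3789 CPM at constant 2 and 11 °C, and 11668 ± 6670 and 12665 ± 7084 under fluctuation. Gene 37244 (-1.66 ± 0.31) went from 4980 ± 1598 and 1873 ± 564 CPM to 1949 ± 1317 and 1892 ± 906, and gene 7808 (-1.56 ± 0.27) from 5161 ± 1224 and 1965 ± 403 CPM to 3915 ± 1063 and 3708 ± 559. The constant arms did not overlap for genes 37244 and 7808, and for gene 38285 they ran from 10201 to 39816 and from 2518 to 14262 CPM. The highest value of gene 37244 after 2 °C, 6014 CPM, was that of replicate 1 of day 55, a library of 75153 counts, and over libraries of at least 1000000 counts its mean there was 1579 ± 326 CPM.

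Gene 40937 (-1.73 ± 0.23), gene 17509 (-1.23 ± 0.24), gene 12653 (-1.18 ± 0.28) and gene 6516 (-1.85 ± 0.60) had the higher mean at constant 2 °C but, under fluctuation, the higher mean after 11 °C. Gene 12653, for one, averaged 29700 ± 9375 and 25401 ± 4980 CPM at constant 2 and 11 °C, and 24234 ± 5300 and 41943 ± 20321 under fluctuation. The differences of gene 38451 (-1.76 ± 0.36), gene 38662 (-1.72 ± 0.46) and gene 30599 (-1.41 ± 0.32) were negative as well. Gene 9525, at 2.16 ± 0.56, and gene 10325, at 0.90 ± 0.29, were the 2 with a positive difference. The calls of genes 12653, 6516, 10325, 38662, 14528, 30599 and 9525 were lost without replicate 2, and those of genes 38285, 6516, 10325 and 38662 without replicate 3.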

How the results depend on the processing

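No member called in a comparison was called in the opposite direction under any alternative run. The 82 results on single named genes met 838 alternatives, of which 772 kept the direction and the call and 66 kept the direction and lost the call. DESeq2, RLE scaling and scaling without the members, no filter, deep libraries, the replicate block and library totals kept the counts of members within 1.5 times, except where given next. Deep libraries gave 8 at the 2 °C trend. No filter gave 6 at the 11 °C trend, 5 for fluctuating after 7 °C against constant 7 °C, 6 for the fluctuating arms after 2 and 11 °C, and 26 for fluctuating after 7 °C against 22 °C. DESeq2 gave 1 at the 22 °C trend and 4, 8 and 26 in those same 3 comparisons. At 22 °C the trend had 8 without the library set as a covariate and 1 without replicate 3, or replicates 1 and 3, of day 41, and fluctuating after 7 °C against 22 °C had 8 without replicates 1 and 3.

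Leaving out one replicate number at a time gave 8 to 12 for 11 °C against 22 °C, 3 to 31 for 4 °C against 22 °C, 3 to 9, 7 to 10, 6 to 10 and 3 to 8 for the trends at 2, 4, 7 and 11 °C, 0 to 0 at 22 °C, 9 to 12 and 0 to 19 for fluctuating after 2 and 11 °C against their constant arms, 0 to 0 for after 2 against after 11 °C, 0 to 37 for after 7 °C against 22 °C and 8 to 15 for the interaction. The causes were not tested.

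With the replicate number as a block, the count for fluctuating after 7 °C against 22 °C was 20, the interaction stayed at 15, and gene 6516 in the former lost its call. Mean correlations of same-numbered libraries ran from -0.0896 to 0.170, and no comparison had every pair above 0.1, so the numbers were not taken to pair the libraries.

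Library totals alone as scale moved the median log2 difference of all genes by over 0.1 in 10 comparisons, to 0.24, 0.18 and 0.16 for 2, 7 and 11 °C against 22 °C, -0.59 for 4 °C, -0.36 and 0.66 for the trends at 2 and 22 °C, -0.30 and -0.32 for fluctuating after 7 and 11 °C against their constant arms, -0.55 (from -0.21) for after 7 °C against 22 °C and 0.21 for the interaction. RLE scaling and DESeq2 both gave -0.21 for 4 °C against 22 °C and -0.33 for after 7 °C against 22 °C, which scaling without the members took to -0.05.

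The 10 highest rows took 26.3% before treatment, 36.5% at 2 °C, 41.3% at 4 °C, 35.8% at 7 °C, 35.4% at 11 °C, 30.6% at 22 °C, and 42.1, 41.7 and 39.4% in the arms after 2, 7 and 11 °C. The 200 highest rows took 50.2, 59.2, 64.3, 57.2, 57.7 and 53.4% before treatment and at 2, 4, 7, 11 and 22 °C, and 63.98, 62.8 and 61.2% in those arms. The 22 °C values of both lists include the day 41 libraries that stood apart. Choosing members by median CPM kept 47 of the 50.

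With 3 libraries per group and totals down to 27485 counts, small changes could not be told from none.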
